A study of Arabidopsis thaliana with 4 samples.

Results

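The elements described are the Gypsy copies of *Arabidopsis thaliana*, the long terminal repeat (LTR) retrotransposons that the deposited count tables place in the superfamily LTR/Gypsy. Each transposon row of the tables has an identifier made of a copy, a superfamily and a family, and the 4181 rows of that superfamily were taken, of 31189 transposon rows in all (13.4%). Names beginning with ATHILA covered 16 of the 32 families and 2859 copies, names beginning with ATGP covered 11 families and 758 copies, ATLANTYS1 to ATLANTYS3 covered 474 copies, and TAT1_ATH and TA1_AT covered the other 90. RNA was sequenced from rosettes at the 9-leaf stage in 2 libraries of *jmj26*, a homozygous insertion line whose T-DNA lies in *JMJ26* (AT1G11950), and 2 libraries of Col-0, the wild type. The paper describes 2 homozygous lines from 1 insertion stock that were propagated separately, and the labels do not state which line a *jmj26* library came from. Nothing in the labels states what the replicates of a genotype share, so the p-values measure the spread between these libraries only.

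Gypsy elements copy themselves through an RNA intermediate that carries gag and pol genes between the LTRs, and in *Arabidopsis* they are concentrated in the pericentromeric heterochromatin. They are normally kept silent by DNA methylation and by methylation of lysine 9 of histone H3, marks that reinforce each other through the chromomethylase CMT3 and the histone methyltransferase SUVH4. JMJ26 belongs to the JmjC-domain proteins of the same class as IBM1, a demethylase of that histone mark that protects genes. The question put to these data was whether Gypsy transcripts were more or less abundant, or came from other copies, in *jmj26* than in Col-0.

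The total count was 1998601 and 1497105 in *jmj26* replicates 1 and 2, against 1022041 and 740909 in Col-0 replicates 1 and 2. Values are given as counts or as CPM, the count divided by all counts of the library and multiplied by 1000000, so that 3 counts, the floor used here, were 1.50 and 2.00 CPM in *jmj26*, against 2.94 and 4.05 CPM in Col-0. Intervals and floors cover counting error only. The targeted gene itself had 0 and 2 counts in *jmj26*, against 1 and 0 in Col-0, too few to check the labels. Genes with another gene annotated across them in the opposite orientation were 24.9% of the gene rows and held 92.4% and 92.5% of the gene counts in *jmj26*, against 95.7% and 94.5% in Col-0. *RBCS1A*, which encodes a small subunit of Rubisco and is among the most abundant leaf transcripts, had 573 and 366 counts in *jmj26*, against 88 and 132 in Col-0. The paper names a directional library kit, but the strand setting of the counting is not given. Whether reads were counted on the strand opposite to the transcript was not tested. This limit holds for the Gypsy copies and for the gene rows given here, *JMJ26*, the tissue markers and the silencing genes among them. Gypsy values are therefore read counts of an unknown strand. The 13 tissue markers summed to 1123 and 1059 CPM in *jmj26*, against 310 and 607 CPM in Col-0. The 9 leaf and root markers had counts in each library, while the pollen and seed markers *VGD1*, *PPME1*, *CRA1* and *CRC* had 0 to 2. The root marker *PYK10* had 75.1 and 84.2 CPM in *jmj26*, against 52.8 and 70.2 CPM in Col-0. That was above the leaf marker *CA1* in each library, with 61.0 and 56.8 CPM, against 19.6 and 49.9 CPM. The part of the difference in the marker sums in the Gypsy values was not tested. The deposited table of *jmj26* replicate 2 carries another run number than the other 3, and what the number stands for is not stated.

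Gypsy copies held a few percent of all counts in each library. Their share of all counts was 3.41% (95% Wilson interval 3.38 to 3.43) and 4.61% (4.58 to 4.64) in *jmj26*, against 3.75% (3.71 to 3.78) and 3.67% (3.63 to 3.71) in Col-0. The *jmj26* libraries lay on either side of both Col-0 libraries, so the groups overlapped. The means were 4.01% ± 0.85 in *jmj26* and 3.71% ± 0.05 in Col-0 (SD, n = 2 each, exact permutation test, two-sided p = 1.0), a difference of 0.30 percentage points. With 2 libraries against 2 the smallest p that this test allows is 1 in 3. The difference rested on *jmj26* replicate 2, and without that library it was -0.30 percentage points.

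Of the transposon counts alone, Gypsy copies held 19.8% and 25.8% in *jmj26*, against 21.5% and 16.9% in Col-0. The groups again overlapped, with a difference of 3.63 percentage points (exact permutation test, p = 0.667). The low value of Col-0 replicate 2 stood beside a single DNA transposon row, AT5TE40480 (ATDNA12T3_2), which had 24503 counts there and 238 to 3286 in the other 3 libraries. Leaving that row out reduced the difference to 2.21 percentage points. Leaving out *jmj26* replicate 2 gave 0.62 percentage points, and leaving out Col-0 replicate 2 gave 1.33.

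**Figure D1:**
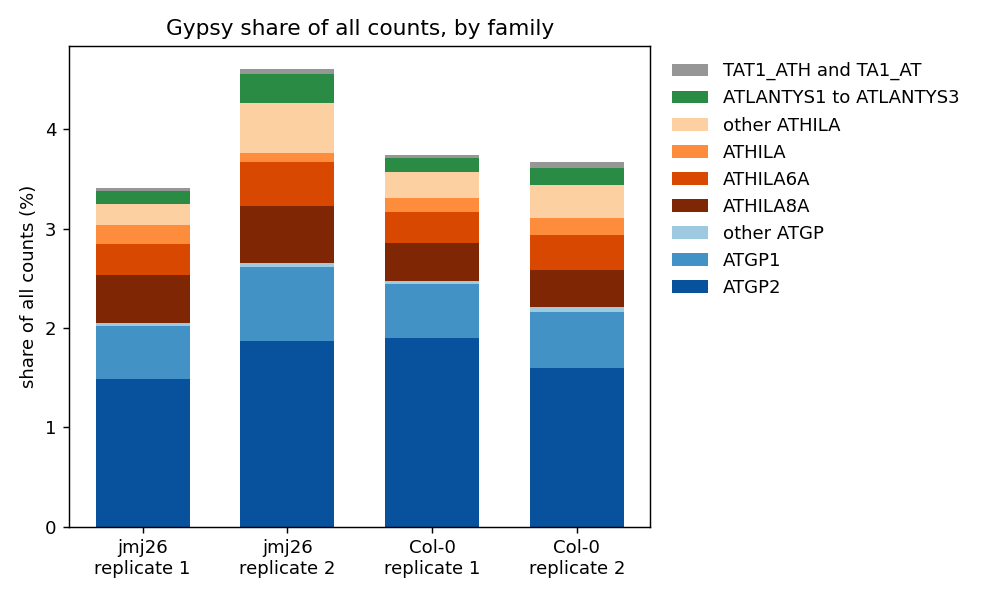
Stacked bars give the share of all counts in percent that fell on Gypsy copies in each library, split by family or group of families. The bar of *jmj26* replicate 2 reaches 4.61%, above 3.41% in *jmj26* replicate 1 and above 3.75% and 3.67% in Col-0, and ATGP2, ATGP1 and ATHILA8A make up most of each bar.

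Most Gypsy copies had no count at all. In all, 3345 copies (80.0%) had 0 counts in each of the 4 libraries, 836 had at least 1 count in some library, and 159 had counts in all 4. Of all transposon copies, 75.3% had none, and of the Copia copies, the other large group of LTR retrotransposons, 68.2% had none. The share of Gypsy copies with at least 1 count was 11.5% and 10.6% in *jmj26*, against 8.73% and 9.40% in Col-0. The same share among the 1781 Copia copies was 20.9% and 17.4% in *jmj26*, against 15.2% and 14.4% in Col-0. Gypsy was the lower in each of the 4 libraries, with a mean difference of -6.95 percentage points (exact paired permutation test over the 4 libraries, p = 0.125, the smallest that 4 pairs allow). Reduced to the same total count, the mean difference to Copia was -5.52 percentage points and again of that sign in each library (p = 0.125, the same exact test).

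Among Gypsy families, detection ran unevenly. Of the ATHILA copies 17.0% had a count in some library, against 25.3% of the ATGP copies and 28.9% of the ATLANTYS copies. ATHILA made up 68.4% of the Gypsy copies and 33.8% of the Gypsy counts pooled over the libraries, while ATGP made up 18.1% of the copies and 60.4% of the counts. The ATGP counts lay mostly on AT2TE18115 (42.2% of all Gypsy counts) and AT3TE32730 (13.7%), and the other ATGP copies held 4.45%. By the digit in the copy names, chromosome 2 held 51.7% of the counts, chromosome 3 held 31.9% and chromosome 4 held 13.8%, and chromosome 2 without AT2TE18115 held 9.53%. Chromosome 1 held 18.01% of the copies but 0.54% of the counts.

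As deposited, more Gypsy copies were detected in *jmj26*. Those with at least 1 count numbered 480 and 443 in *jmj26*, against 365 and 393 in Col-0, and those with at least 10 counts numbered 116 and 106, against 88 and 86. The groups did not overlap, but the *jmj26* libraries were also the deeper ones. Expected numbers at the total of the shallowest library, from the hypergeometric formula, were 308 and 328 copies in *jmj26*, against 319 and 393 in Col-0. At that common depth the groups overlapped, and the means of *jmj26* and Col-0 differed by -38.3 copies (exact permutation test, p = 0.667). Without Col-0 replicate 2 the difference was -1.26 copies.

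**Figure D2:**
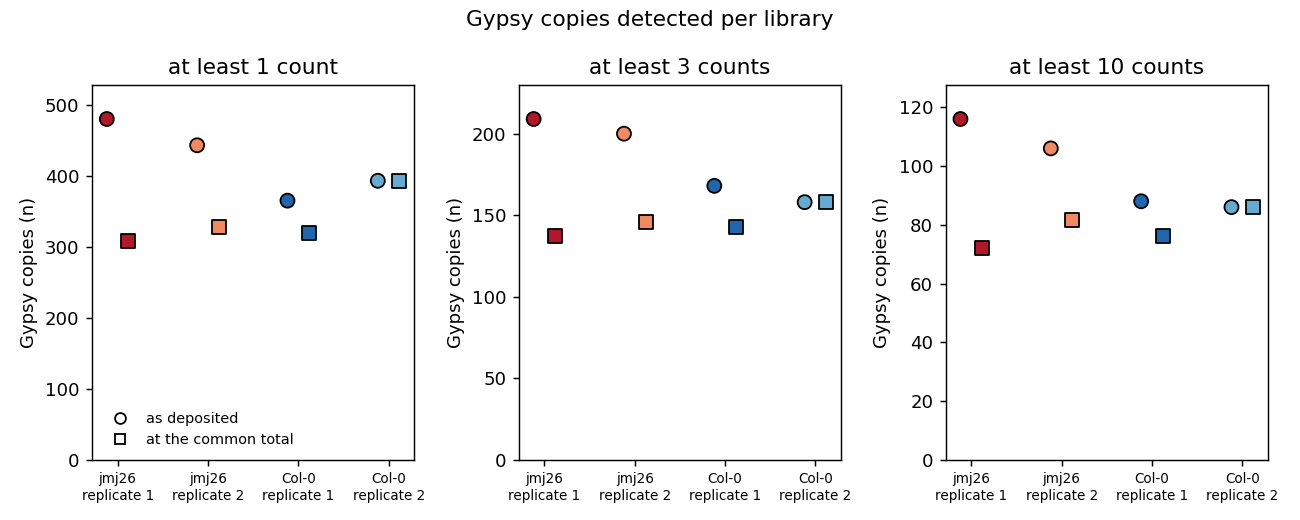
Each panel gives the number of Gypsy copies with at least 1, 3 or 10 counts in the 4 libraries, as circles for the deposited tables and as squares for the number expected at the total of the shallowest library, Col-0 replicate 2. For at least 1 count the circles lie at 480 and 443 in *jmj26*, above 365 and 393 in Col-0, and the squares at 308 and 328 in *jmj26*, against 319 and 393 in Col-0.

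Copies present in 1 genotype and not in the other were rare and low. There were 45 copies with counts in both *jmj26* libraries and none in Col-0, and 14 with counts in both Col-0 libraries and none in *jmj26*. These were 1.08% and 0.335% of the Gypsy copies, against 1.28% and 0.385% of all transposon copies, and the *jmj26* libraries were the deeper ones. No copy reached 10 counts in each library of 1 genotype with 0 in both of the other. The highest of the 45 was AT3TE59695, an ATHILA2 copy with 3 and 47 counts in *jmj26* and 0 in both Col-0 libraries. It was followed by AT4TE15420, also ATHILA2, with 10 and 5 counts in *jmj26* and 0 in Col-0. Of the 14, AT2TE00085 (ATLANTYS3) had 1 and 4 counts in Col-0, and AT2TE19985 (TAT1_ATH) had 2 and 3. All of these were chosen after their values were seen, and at this depth a count of 0 allows up to 3 counts in a library.

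Gypsy counts were concentrated in very few copies, all 3 of the leading ones from different families. AT2TE18115 (ATGP2, chromosome 2) was also the highest of all transposon copies. It had 28798 and 27054 counts in *jmj26*, against 18795 and 10804 in Col-0, which were 14409 and 18071 CPM against 18390 and 14582 CPM. In CPM the groups overlapped, with a higher and a lower library in each genotype, and the log2 fold change was -0.05 ± 0.17 (SE). The copy held 42.3% and 39.2% of the Gypsy counts in *jmj26*, against 49.1% and 39.7% in Col-0. The highest Copia copy held 10.9% and 11.7% of the Copia counts in *jmj26*, against 12.7% and 13.4% in Col-0. The leading copy took the larger share in Gypsy in each of the 4 libraries (exact paired permutation test over libraries, p = 0.125). Both leading copies were picked by their mean CPM over these same libraries, so this p-value gives no independent support. The 10 highest copies of Gypsy held 84.6% and 79.4% of its counts in *jmj26*, against 84.3% and 76.8% in Col-0. Concentration was not particular to Gypsy. The highest copy of the En-Spm DNA transposons held 30.3% and 22.2% of their counts in *jmj26*, against 27.1% and 24.2% in Col-0. The 20 highest copies held 87.9% of the pooled En-Spm counts and 89.4% of the pooled Gypsy counts.

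The second copy, AT3TE32730 (ATGP1, chromosome 3), had 4666 and 6780 CPM in *jmj26*, against 4695 and 4836 CPM in Col-0. Only *jmj26* replicate 2 stood above the rest, so the groups overlapped, and the log2 fold change was 0.23 ± 0.20. The third, AT4TE67650 (ATHILA8A, chromosome 4), had 4856 and 5743 CPM in *jmj26*, against 3763 and 3774 CPM in Col-0. Here both *jmj26* libraries lay above both Col-0 libraries, and the log2 fold change was 0.46 ± 0.14 (edgeR quasi-likelihood test, Benjamini-Hochberg adjusted p = 0.289 over all 6078 rows tested). Leaving out each library in turn gave log2 fold changes of 0.33 to 0.57 for this copy, and the alternatives gave adjusted p-values of 0.202 to 0.925.

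The next copies by level belonged mostly to ATHILA families. AT2TE61100 (ATHILA6A) had 1179 and 2067 CPM in *jmj26*, against 1372 and 1118 CPM in Col-0. AT3TE35255 and AT3TE73810, of the same family, had 578 and 745 CPM and 532 and 536 CPM in *jmj26*, against 492 and 458 CPM and 497 and 440 CPM in Col-0. Both of these last copies were higher in each *jmj26* library than in either Col-0 library, with log2 fold changes of 0.45 ± 0.17 and 0.16 ± 0.13. AT3TE59160 (ATHILA2) lay the other way, with 484 and 586 CPM in *jmj26*, against 635 and 736 CPM in Col-0 (log2 fold change -0.39 ± 0.17). AT3TE58050 (ATGP2) had 318 and 476 CPM in *jmj26*, against 422 and 722 CPM in Col-0, and its groups overlapped. Adjusted p-values of these 5 copies were 0.375 or higher (edgeR quasi-likelihood test).

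AT2TE51495, an ATHILA copy on chromosome 2, was split within *jmj26*. It had 3166 and 0 counts in *jmj26*, against 1121 and 753 in Col-0, or 1584 and 0 CPM against 1097 and 1016 CPM. The copy was thus absent from *jmj26* replicate 2 and above both Col-0 libraries in *jmj26* replicate 1. The upper limit that 0 counts allow in *jmj26* replicate 2 is 2.00 CPM. The fit over all 4 libraries gave a log2 fold change of -0.45 ± 1.92 (edgeR, adjusted p = 0.97). Without *jmj26* replicate 1 the fit called the copy (adjusted p = 0.000239), and without *jmj26* replicate 2 its log2 fold change was 0.55. AT4TE88500, from the same family, was likewise at 0 in *jmj26* replicate 2 alone, with 83 and 0 counts in *jmj26*, against 50 and 16 in Col-0.

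**Figure D3:**
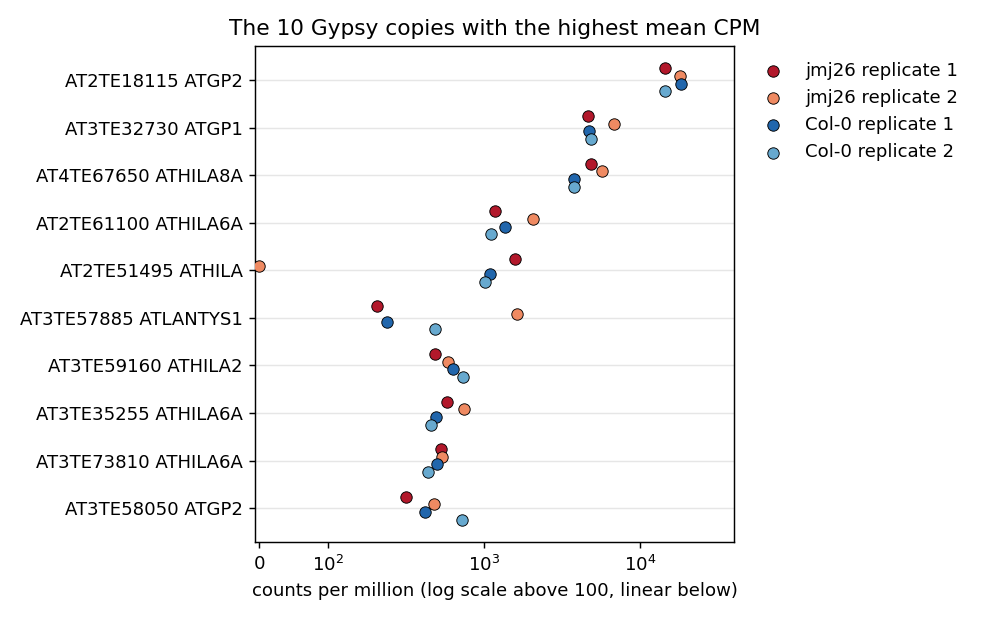
Points give the CPM of the 10 Gypsy copies with the highest mean in the 4 libraries, on an axis that is logarithmic above 100 and linear below. AT2TE18115 lies between 14409 and 18071 CPM in *jmj26* and between 14582 and 18390 CPM in Col-0, while AT2TE51495 is at 0 in *jmj26* replicate 2 and AT3TE57885 is at 1618 CPM there, against 206 CPM in *jmj26* replicate 1 and 241 and 486 CPM in Col-0.

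Of the 836 detected copies, 102 passed edgeR's filter on low counts and were tested together with the gene rows and the other transposons. These copies carried 98.4% of the Gypsy counts, and the 734 others were too low to test. The filter asked for about 7.94 CPM in 2 libraries, and 69 of the 102 reached that level in all 4 libraries, 2 in both *jmj26* libraries alone and 6 in both Col-0 libraries alone. At a false discovery rate of 0.05 none of the 102 differed between *jmj26* and Col-0 (edgeR quasi-likelihood test, Benjamini-Hochberg adjustment). The background over all 6078 rows was 5 calls (0.0823%), of which 3 were transposons of other superfamilies. DESeq2's Wald test called 1 Gypsy copy and edgeR's exact test called 4.

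At an unadjusted p below 0.05 there were 14 Gypsy copies (13.7%), 3 higher and 11 lower in *jmj26*. The share was 8.04% of all tested transposon copies and 12.7% of all 6078 rows tested, genes among them. In 10 of the 102 copies (9.80%) both *jmj26* libraries lay above both Col-0 libraries. This held for 14.2% of all tested transposon copies and 26.8% of all rows tested. In 20 copies (19.6%) both lay below, against 17.1% of the transposon copies and 14.8% of all rows. The median log2 fold change of the tested Gypsy copies was -0.19, with 39 copies positive and 63 negative, and over all tested transposons it was -0.08. Over the 69 copies that reached the filter's level in all 4 libraries it was -0.12. By group the median was -0.07 for 58 ATHILA copies, -0.56 for 21 ATGP copies and -0.24 for 19 ATLANTYS copies. The ATGP copies AT2TE00010, AT2TE00015, AT2TE00075, AT2TE00115 and AT2TE00120, all with negative values, share 1 run of identifiers at the start of chromosome 2. The 17 Gypsy copies from AT2TE00000 to AT2TE00999 had 580 and 514 CPM in *jmj26*, against 512 and 1240 CPM in Col-0. The Gypsy median depended on 2 libraries, and was 0.06 without Col-0 replicate 2 and -0.61 without *jmj26* replicate 2.

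**Figure D4:**
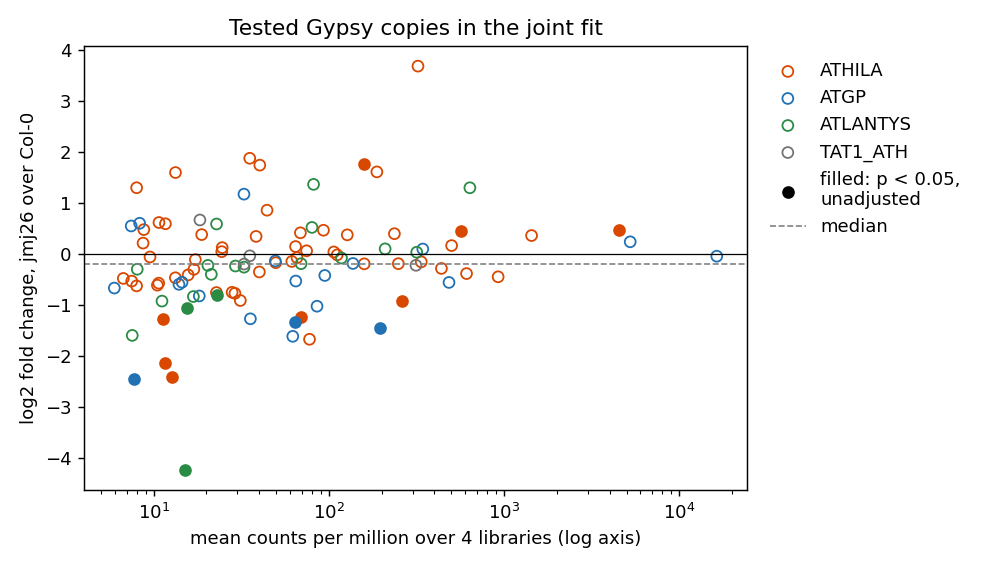
Each point is 1 of the 102 tested Gypsy copies, with the mean CPM over the 4 libraries on a logarithmic axis and the log2 fold change of *jmj26* over Col-0, filled where the unadjusted p was below 0.05. Of the 14 filled points 3 lie above 0 and 11 below, and the dashed line is the median, at -0.19.

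Among copies higher in *jmj26*, AT2TE25295 (ATHILA2, chromosome 2) had the smallest p. It had 361 and 466 counts in *jmj26*, against 97 and 34 in Col-0, or 181 and 311 CPM against 94.9 and 45.9 CPM. Both *jmj26* libraries were above both Col-0 libraries, with a log2 fold change of 1.76 ± 0.41 (edgeR quasi-likelihood test, adjusted p = 0.255). It was the copy called by DESeq2's Wald test (adjusted p = 0.0370), and the exact test of edgeR called it too (adjusted p = 0.0118). Over the 12 alternatives run, its adjusted p ranged from 2.69e-09 without a filter on low counts to 0.627 without *jmj26* replicate 2. The copy held 18.6% of the counts of ATHILA2, whose leading copy AT3TE59160 lay the other way.

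The remaining copies with both *jmj26* libraries above both Col-0 libraries were low or changed little. AT5TE79650 (ATHILA6A) had 19 and 46 counts in *jmj26*, against 5 and 6 in Col-0. AT4TE21100 (ATHILA3) had 16 and 23 counts, against 6 and 2. AT3TE91745 (ATLANTYS2), AT3TE13000 (ATHILA6A), AT2TE26845 (ATHILA7) and AT4TE42070 (ATHILA6A) had log2 fold changes of 0.52, 0.41, 0.59 and 0.47. Of the 10 copies in this direction 9 were ATHILA and 1 was ATLANTYS, but ATHILA was 58 of the 102 tested copies and also had 9 copies in the other direction. Their adjusted p-values ran from 0.255 to 0.762 (edgeR quasi-likelihood test).

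Among copies lower in *jmj26*, AT3TE57890 (ATLANTYS2, chromosome 3) had 5 and 0 counts in *jmj26*, against 16 and 31 in Col-0. Its fitted log2 fold change was -4.25 ± 0.92 (edgeR quasi-likelihood test, adjusted p = 0.255). AT2TE00120 (ATGP2N) had 6 and 2 counts in *jmj26*, against 9 and 13 in Col-0 (log2 fold change -2.46 ± 0.63), and AT3TE59250 (ATHILA4C) had 11 and 4, against 13 and 19 (-2.14 ± 0.56). These 3 were called by edgeR's exact test and not by DESeq2's Wald test. All rest on 30 to 52 counts over the 4 libraries, and the groups did not overlap in CPM.

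Better covered copies of this kind were AT3TE57250 (ATHILA4A), with 57.5 and 25.4 CPM in *jmj26*, against 98.8 and 95.8 CPM in Col-0, and AT3TE57605 (ATGP1), with 47.0 and 25.4 CPM, against 64.6 and 117 CPM. AT3TE57225, the leading copy of ATHILA3, had 168 and 200 CPM in *jmj26*, against 229 and 452 CPM in Col-0. AT2TE00015 (ATGP2) had 129 and 85.5 CPM in *jmj26*, against 136 and 435 CPM in Col-0, where Col-0 replicate 2 alone stood far above the rest. Their log2 fold changes were -1.25 ± 0.38, -1.34 ± 0.42, -0.93 ± 0.35 and -1.45 ± 0.56, with adjusted p-values of 0.289 to 0.386 (edgeR quasi-likelihood test). AT3TE58070 and AT4TE51005 (both ATLANTYS3) and AT3TE56720 (ATHILA) had log2 fold changes of -0.81, -1.06 and -2.42. Of the 10 copies in this direction with the smallest p, 7 were on chromosome 3, and 4 of these had identifiers from AT3TE57000 to AT3TE57999. Of all 102 tested Gypsy copies, 56 (54.9%) were on chromosome 3 and 30 (29.4%) had identifiers in that run.

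The summed level of that run of identifiers varied more between replicates than between the means of the genotypes. It was picked out after its values were seen, and holds 122 Gypsy copies of 22 families, 51 of them detected. Together they had 1590 and 6829 CPM in *jmj26*, against 2088 and 4200 CPM in Col-0. The value was 4.29 times as high in *jmj26* replicate 2 as in replicate 1, and 2.01 times as high in Col-0 replicate 2 as in replicate 1, so the groups overlapped. All other Gypsy copies summed to 32481 and 39282 CPM in *jmj26*, against 35380 and 32497 CPM in Col-0. Without the run the Gypsy share of all counts differed by 0.20 percentage points, and outside the run the median log2 fold change of the 72 tested copies was -0.19.

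Several copies of the run were split between the *jmj26* libraries, and 3 of the higher ones, chosen after their values were seen, are given here. AT3TE57885 (ATLANTYS1), the sixth copy by mean CPM, had 206 and 1618 CPM in *jmj26*, against 241 and 486 CPM in Col-0. AT3TE57235 (ATHILA4C) had 22.5 and 1174 CPM in *jmj26*, against 30.3 and 62.1 CPM in Col-0. AT3TE57255 (ATHILA3) had 69.0 and 499 CPM in *jmj26*, against 72.4 and 111 CPM in Col-0. In each of these, *jmj26* replicate 2 stood above the 3 other libraries and *jmj26* replicate 1 lay below Col-0 replicate 1. Without *jmj26* replicate 1 the last 2 were called (edgeR quasi-likelihood test, 11 Gypsy copies in all at a false discovery rate of 0.05), and none was called without *jmj26* replicate 2.

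Transposons of other superfamilies in the same run of identifiers had 1230 and 10073 CPM in *jmj26*, against 1822 and 3324 CPM in Col-0, the highest being AT3TE57395 (ATENSPM6) with 607 and 8335 CPM, against 938 and 1740 CPM. The 18S ribosomal RNA gene AT3G41768, on chromosome 3 of TAIR10.1 from 14197677 to 14199484, had 3071 and 5543 CPM in *jmj26*, against 783 and 1841 CPM in Col-0. Replicate 2 was the higher library in both genotypes for this row too. Its *jmj26* replicate 1 lay above both Col-0 libraries, which was not so for the summed Gypsy copies of the run. Another ribosomal RNA row, AT2G01010 on chromosome 2, had 12 and 108 counts in *jmj26*, against 23 and 16 in Col-0. In Col-0, replicate 2 was not the higher library for AT2G01010. Its *jmj26* replicate 1 was the lowest library and *jmj26* replicate 2 the highest, as for the summed Gypsy copies of the run. The part of ribosomal RNA, or of the other run number of *jmj26* replicate 2, in the values of these copies was not tested.

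**Figure D5:**
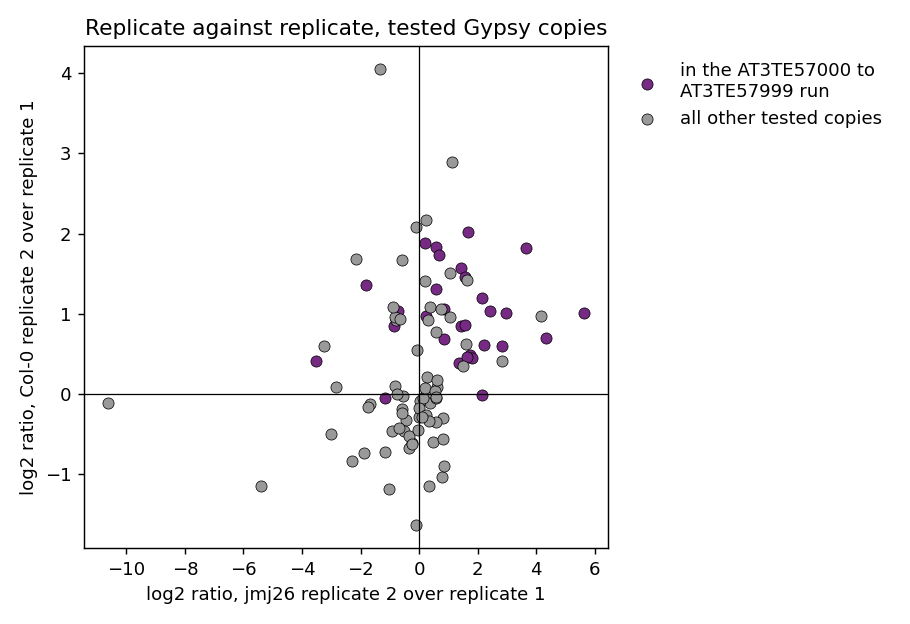
Each point is a tested Gypsy copy, with the log2 ratio of *jmj26* replicate 2 over replicate 1 across and that of Col-0 replicate 2 over replicate 1 up, both after adding 1 CPM. The 30 copies of the run AT3TE57000 to AT3TE57999 have medians of 1.50 across and 0.99 up, against 0.01 and -0.05 for the 72 others, and the point farthest left, at -10.63, is AT2TE51495.

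Summed by family, none of the 27 Gypsy families tested differed between *jmj26* and Col-0 at a false discovery rate of 0.05 (edgeR quasi-likelihood test with Benjamini-Hochberg adjustment over 5435 gene and family rows, of which 3, or 0.0552%, were called). One family had an unadjusted p below 0.05, as did 13 of the 203 transposon families tested (6.4%) and 14.8% of all 5435 rows. DESeq2's Wald test and edgeR's exact test also called none, with 1 Gypsy family each below an unadjusted 0.05. Both *jmj26* libraries lay above both Col-0 libraries in 2 of the 27 families (7.41%, against 10.3% of all transposon families) and below in 3 (11.1%, against 20.7%). Over all 5435 rows these shares were 28.1% above and 14.7% below.

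ATHILA8A was the family with the smallest p. This family had 4867 and 5782 CPM in *jmj26*, against 3780 and 3790 CPM in Col-0 (log2 fold change 0.46 ± 0.14, adjusted p = 0.194, edgeR quasi-likelihood test). AT4TE67650 alone made up 99.6% of this family's counts, so that the family value is that copy's value. Of its 97 copies 18 were detected. The log2 fold change of the family stayed between 0.31 and 0.57 when each library was left out.

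The 2 largest families were each led by 1 copy in the same way. ATGP2 had 14906 and 18658 CPM in *jmj26*, against 18962 and 15928 CPM in Col-0, with 96.1% of its counts on AT2TE18115. ATGP1 had 5318 and 7500 CPM in *jmj26*, against 5506 and 5677 CPM in Col-0, with 87.9% on AT3TE32730. In both the groups overlapped, with log2 fold changes of -0.09 ± 0.16 and 0.16 ± 0.19. ATHILA6A was spread more widely, with 40.9% of its counts on its leading copy, and had 3148 and 4453 CPM in *jmj26*, against 3168 and 3497 CPM in Col-0.

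The remaining families above 2% of the Gypsy counts overlapped between the genotypes. ATHILA had 1867 and 854 CPM in *jmj26*, against 1450 and 1760 CPM in Col-0, and 64.6% of it was AT2TE51495. ATHILA2 had 812 and 1197 CPM in *jmj26*, against 910 and 1084 CPM in Col-0. ATLANTYS1 had 413 and 1772 CPM in *jmj26*, against 440 and 699 CPM in Col-0, with 77.4% on AT3TE57885. For ATLANTYS1 the log2 fold change was 0.91 ± 0.62 with all libraries and -0.50 without *jmj26* replicate 2. The largest fitted log2 fold change among the families was that of ATHILA4C, 1.59 ± 0.77 (edgeR, adjusted p = 0.431), with 217 and 1478 CPM in *jmj26*, against 251 and 300 CPM in Col-0. This family was chosen after its values were seen.

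The families whose groups did not overlap were, besides ATHILA8A, small. ATGP9LTR had 22 and 17 counts in *jmj26*, against 4 and 7 in Col-0, and lay above. ATHILA4D_LTR, ATGP2N and ATHILA8B lay below in *jmj26*, with 35.0 and 39.4, 16.0 and 20.04, and 8.51 and 8.02 CPM, against 48.9 and 43.2, 22.5 and 29.7, and 11.7 and 17.5 CPM in Col-0. The adjusted p-values of these 4 were 0.393 to 0.569 (edgeR quasi-likelihood test). ATGP5, ATGP6, ATGP7, ATHILA4B_LTR and TA1_AT were too low to be tested, with 8 to 42 counts over the 4 libraries.

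The genes that act on Gypsy chromatin were hardly covered. Of 28 listed silencing genes, among them the DNA methyltransferase genes *MET1*, *CMT2*, *CMT3* and *DRM2*, the remodeler gene *DDM1* and the H3K9 methyltransferase genes *SUVH4*, *SUVH5* and *SUVH6*, 14 had 3 counts or fewer in each library. Only *MSI1*, which encodes a WD40 histone chaperone subunit, could be tested, with 65 and 31 counts in *jmj26*, against 24 and 19 in Col-0. Its log2 fold change was 0.10 ± 0.31 (edgeR, adjusted p = 0.956). Among the untested genes, *NRPE1* had 7 and 15 counts in *jmj26*, against 4 and 4 in Col-0, and *SUVH4* had 9 and 11, against 7 and 2. *CMT2* had 10 and 6, against 2 and 4, and in CPM the groups of these genes overlapped. *MET1* had 11 and 7 counts in *jmj26*, against 1 and 2 in Col-0, and *CMT3* had 11 and 4, against 0 and 0. For these last genes both *jmj26* libraries lay above both Col-0 libraries in CPM, as they did in 28.8% of the tested gene rows. The 2 genes whose annotation entries mention gypsy or Athila had 0 counts in all 4 libraries, which allows up to 3 counts in each. They were AT2G11120 and AT1G35860, and the second carries the symbol *TOC75-I*, which is not the name of a Gypsy element.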

How the data were processed

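RNA-seq libraries of rosettes, 2 of *jmj26* and 2 of Col-0, were grouped by their labels. The authors used fastp for trimming and STAR 2.7 with Araport11 for alignment. The paper names featureCounts 2.0.1 for genes and TEcount for transposons, for which reads with up to 100 hits were kept. TEcount divides reads with several hits among copies. The tools listed with the samples include featureCounts and not TEcount, and whether the deposited counts were divided in this way was not tested. The deposited values are raw counts, not normalized. The strand setting is not given in the sources used here. Near-identical copies share reads, so a count on 1 copy can hold reads of another.

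The members and lists were chosen with earlier results of these data known. Gene and copy rows were fitted together in R 4.3.3 with edgeR 4.0.16 (filterByExpr, TMM, estimateDisp, glmQLFit with legacy = TRUE, glmQLFTest) with Benjamini-Hochberg adjustment over all rows fitted. Families were fitted as summed counts beside the gene rows. Standard errors were obtained from each F statistic, as |log2 fold change|/√F. The biological coefficient of variation was 24.4% for copies and 18.6% for families. The fit was tested on simulated data. Shares, detection at a common total and exact permutation tests used scipy 1.17.1 and pandas 2.3.3, and figures used matplotlib 3.10.9.

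Copies named are those with an adjusted p below 0.05, the 10 with the smallest p among those with both *jmj26* libraries above both Col-0 libraries, the 10 likewise below, and the 10 with the highest mean CPM. Families with at least 2% of the Gypsy counts are given by library. Other names were chosen after their values were seen. Alternatives were other filters, normalizations and tests (DESeq2 1.42.0 among them), transposon rows alone, other thresholds, the replicate number as a block, and each library left out. Shares without the AT3TE57000 run, without AT2TE51495, without the 18S row and without AT5TE40480 were added after seeing the data. Transposon positions were not used here, so no sequences are shown. Chromosomes of copies are read from their identifiers.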

Additional observations from a re-analysis of the deposited data

How the results depend on the processing

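No Gypsy copy and no Gypsy family was called under the other normalizations, the stricter filter, robust fitting, legacy = FALSE, transposon rows alone, adjustment over transposon rows, or thresholds of 0.01 and 0.10. Without the filter on low counts 23 copies and 3 families were called, with DESeq2's Wald test 1 copy, and with edgeR's exact test 4 copies. Leaving out each library gave 0 to 11 called copies and 0 to 3 called families, the highest in both without *jmj26* replicate 1, when the lone *jmj26* library is assumed to vary like the others. The replicate block called 0 copies and 0 families, with 17 copies below an unadjusted 0.05. Same-numbered libraries deviated from their group means with r = -0.09 over 6078 rows, so the numbers were not taken to pair the libraries, and the labels do not say what they share. The block changed no call.

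The median log2 fold change of tested Gypsy copies ran from -0.61 to 0.0605 with a library left out, and from -0.22 to -0.08 under the other settings. The difference in the Gypsy share of all counts ran from -0.30 to 0.90 percentage points with a library left out. The difference in detected copies was 82.5 as deposited, against -38.3 at the common depth.

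Of 396 refits of the 34 named copies and families, 358 kept direction and side of the threshold, 20 became calls and 18 changed sign. AT2TE18115 changed sign with at least 10 counts in every library (0.019) and with upper quartile normalization (0.0031), as did ATHILA2 under these settings (0.0302 and 0.0143) and with library totals (0.0305). With each library left out, log2 fold changes ran from -0.26 to 0.10 for AT2TE18115, -0.0685 to 0.47 for AT3TE32730, -0.11 to 0.70 for AT2TE61100, -13.19 to 0.55 for AT2TE51495 and -0.86 to 2.104 for AT3TE57885. For families they ran from -0.27 to 0.0569 for ATGP2, -0.11 to 0.38 for ATGP1, -0.12 to 0.37 for ATHILA6A, -0.96 to 0.18 for ATHILA, -0.33 to 0.22 for ATHILA2 and -0.50 to 1.59 for ATLANTYS1. The cause was not tested. With 740909 to 1998601 counts per library, most copies under about 8 CPM could not be tested.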
